A study of Homo sapiens with 8 samples.

Results

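H3K27ac peaks gained in the alectinib-resistant line alone numbered 3519 of the 126470 peaks in the deposited table. They were chosen by their H3K27ac values: a level in erAlec0 at least 1 above naive cells, a change under 0.5 against naive cells in both erCriz0 and erLor0, and a level in erAlec0 of at least 3.91, the log2 of 15 reads. Of the 69508 peaks that reached this level in erAlec0 (called eligible here), 5.06% met all limits. All values are rlog values, a log2 scale in which the values of features with few reads are drawn towards their mean over the libraries, so differences understate the change of weak peaks and genes.

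The cells were H3122, an established human lung adenocarcinoma line driven by the EML4-ALK fusion. Naive cells had no evolved resistance, and erAlec0, erCriz0 and erLor0 were derivatives made resistant by dose escalation to 2 µM alectinib, 0.5 µM crizotinib and 2 µM lorlatinib, inhibitors of the ALK kinase. The ChIP-seq samples of the resistant lines were listed with these inhibitor doses and 0.1% DMSO, and naive cells with 0.1% DMSO and no inhibitor. RNA was taken after 48 h without inhibitor. The paper states no such interval for ChIP-seq, so the ChIP and RNA libraries may differ in drug exposure. Each resistant line was 1 derivative with 1 ChIP-seq and 1 RNA-seq library, so no difference below has a replicate check or a p-value, and all 3 comparisons share the same naive library. Read totals were not in the table, and the depth behind each value is unknown.

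H3K27ac is acetylation of lysine 27 on histone H3, a mark of active enhancers and promoters. Enhancers lie mostly in introns and between genes and act on promoters at a distance, and a dense run of acetylated peaks over many kilobases is often treated as 1 regulatory domain. Promoter acetylation is mostly shared between cell states, while enhancer acetylation differs more.

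RNA markers of the labelled tissue were present in every line. All 12 listed markers of lung epithelial tumour cells, among them the keratins KRT8 and KRT18, E-cadherin (CDH1) and the lung transcription factor NKX2-1, were at or above 4.64 (the log2 of 25 reads, used here as the limit for expressed genes) in each of the 4 lines, between 8.67 and 15.2. Of 12 markers of stromal, immune and endothelial cells, 3 reached that limit in at least 1 line and 2 were at 0 in all lines, and the summed level of those that reached it was 18.1 in naive cells, 20.1 in erAlec0, 18.8 in erCriz0 and 20.3 in erLor0. In such bulk libraries fewer cells of a type and less RNA per cell cannot be told apart.

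The sequences that show what the leading peaks look like are the central 200 bases of 7 members: 2 of those with the largest change in the whole set and the one with the largest change in each of 5 clusters described below. They are reference sequence of build hg38, plus strand, 5′ to 3′. Capitals mark a match, on either strand, to the AP-1 motif TGANTCA, the GATA motif AGATAA or the TEAD motif GGAATG, and 5 of the 7 windows hold none of them.
lncRNA ENSG00000231698, chr11:131339387-131339586: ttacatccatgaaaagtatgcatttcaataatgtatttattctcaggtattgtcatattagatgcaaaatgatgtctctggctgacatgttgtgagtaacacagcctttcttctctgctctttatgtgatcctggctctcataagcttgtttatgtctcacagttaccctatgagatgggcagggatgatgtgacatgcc
WDPCP, chr2:63615167-63615366: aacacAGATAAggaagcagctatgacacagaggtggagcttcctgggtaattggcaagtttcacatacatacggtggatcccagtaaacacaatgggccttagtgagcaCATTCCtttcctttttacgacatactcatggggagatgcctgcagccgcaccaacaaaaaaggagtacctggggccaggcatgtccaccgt
HDAC9, chr7:18526843-18527042: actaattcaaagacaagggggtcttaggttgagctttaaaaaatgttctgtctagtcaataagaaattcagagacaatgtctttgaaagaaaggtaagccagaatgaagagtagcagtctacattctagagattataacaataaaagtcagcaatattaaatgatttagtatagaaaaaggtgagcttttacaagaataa
FMN1, chr15:32819259-32819458: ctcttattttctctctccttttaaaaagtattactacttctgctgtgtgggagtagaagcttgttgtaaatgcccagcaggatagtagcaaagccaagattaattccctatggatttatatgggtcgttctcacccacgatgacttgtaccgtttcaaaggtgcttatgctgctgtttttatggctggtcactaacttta
KIAA1217, chr10:24271774-24271973: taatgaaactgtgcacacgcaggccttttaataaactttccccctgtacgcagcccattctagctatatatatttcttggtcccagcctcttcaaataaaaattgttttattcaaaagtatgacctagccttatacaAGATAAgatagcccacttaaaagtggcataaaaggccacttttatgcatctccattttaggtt
NEDD9, chr6:11263214-11263413: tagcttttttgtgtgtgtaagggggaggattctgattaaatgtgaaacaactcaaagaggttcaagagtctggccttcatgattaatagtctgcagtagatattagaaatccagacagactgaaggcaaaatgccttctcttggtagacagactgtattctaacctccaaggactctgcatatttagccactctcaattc
TCHHL1, chr1:152089307-152089506: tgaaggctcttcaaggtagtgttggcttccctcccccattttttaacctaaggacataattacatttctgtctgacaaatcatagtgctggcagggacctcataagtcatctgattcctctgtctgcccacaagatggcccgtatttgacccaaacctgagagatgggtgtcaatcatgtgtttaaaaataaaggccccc

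Most members were weak in every line but erAlec0. In naive cells the H3K27ac level of the members had a median of 3.61 (lowest 1.26, highest 11.1), in erAlec0 5.10 (3.91 to 12.2), in erCriz0 3.42 (1.28 to 11.5) and in erLor0 3.77 (1.49 to 11.5). In naive cells 2091 members (59.4%) were below the level minimum, and 1839 (52.3%) were below it in naive cells, erCriz0 and erLor0 alike. The difference between erAlec0 and naive cells had a median of 1.37, with 1319 members at 1.5 or more, 430 at 2 or more and 23 at 3 or more. These values describe the choice of members and test nothing.

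The limit in erLor0 did most of the selecting. Of 13299 eligible peaks that were higher by 1 or more in erAlec0, 7191 were left out by erLor0 alone, 469 by erCriz0 alone and 2120 by both. Members were mostly lower than naive cells in erCriz0 (2460, 69.9%) but not in erLor0 (877, 24.9%), with median changes of -0.20 and 0.22. Only 668 (19.0%) were lower than naive cells in both lines. Over all eligible peaks the median changes were 0.08 in erCriz0 and 0.18 in erLor0. The limits of 0.5 remove the higher changes by themselves, so these counts describe the choice of members and test nothing. Just inside the limit in erLor0, 3 members changed by 0.4999, and the 3 nearest peaks outside it changed by 0.5008 to 0.5009. At the limit of 1 in erAlec0 the nearest members were at 1.0002 to 1.0004 and the nearest other peaks at 0.9992 to 0.9999. At the limit in erCriz0 the values were 0.4992 to 0.4995 inside and 0.5005 to 0.501 outside, and at the level minimum 3.9103 to 3.9105 inside and 3.9075 to 3.9097 outside.

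**Figure D1:**
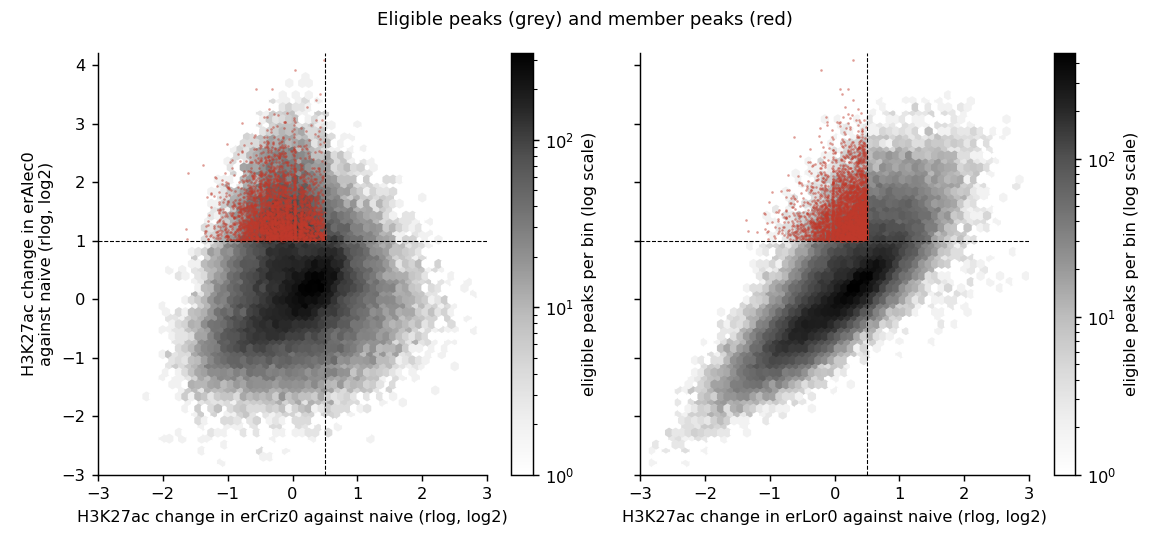
H3K27ac change in erAlec0 against naive cells (y axis) over the change in erCriz0 (left) and erLor0 (right), all as rlog differences on the log2 scale, for the eligible peaks in grey, shaded by their number per bin on a log scale, and the 3519 members as red points. Dashed lines are the limits of 1 and 0.5, and the members fill the corner beside a dense band of peaks that were higher in both erAlec0 and erLor0.

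Members lay away from transcript starts more often than eligible peaks did. A transcript start of the GENCODE 44 annotation lay within 1 kb of 513 members (14.6%, 95% Wilson interval 13.5 to 15.8) against 35.9% of eligible peaks, and introns held 2097 members (59.6%, 58.0 to 61.2) against 39.8%. Exons held 7.79% of the members and 9.22% of eligible peaks, and 18.0% and 15.1% lay outside genes. The median distance to the nearest start of a protein-coding gene was 19735 bases for members and 7564.5 bases for eligible peaks. The intervals cover counting error only, and neighbouring peaks are not independent.

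The position of a peak went with its level, which the rule used. With eligible peaks cut into 5 equal groups by level in erAlec0, 9.58% of members and 20.01% of eligible peaks in the lowest group were at a start, and in the highest group 30.7% and 66.1%, so members were less often at a start at the same level. The highest group held 241 members, 1.73% of its peaks, against 919 (6.61%) in the lowest. Peaks gained in erAlec0 and erLor0 together (3670 peaks, higher by at least 1 in both and under 0.5 in erCriz0) were at a start in 22.5%, and peaks gained in erCriz0 alone (4672 peaks, by the same limits) in 21.7%. Both sets were stronger than the members, with median levels of 6.48 in erAlec0 and 6.22 in erCriz0, and the part of the level in their positions was not tested.

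**Figure D2:**
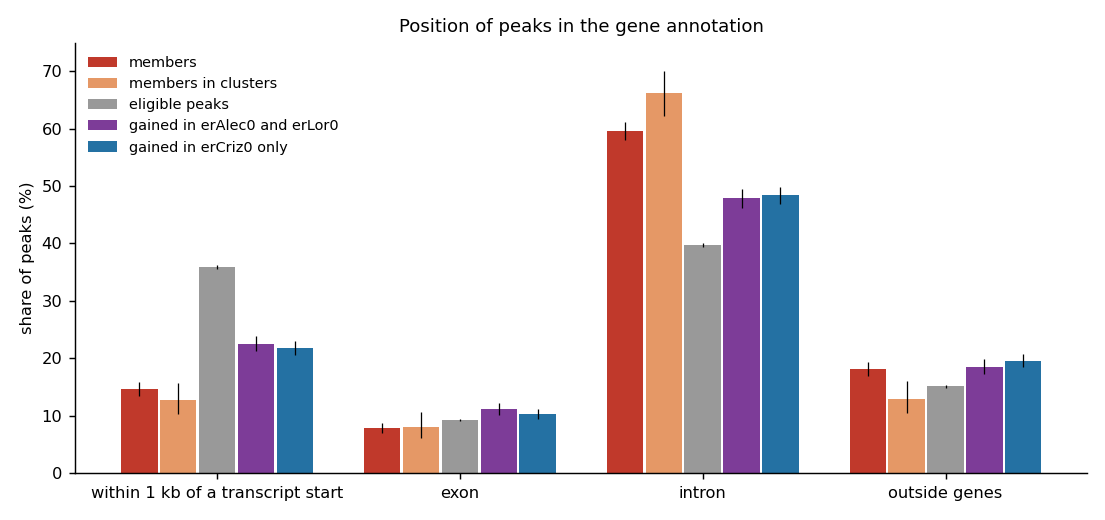
Share of peaks (y axis, %) by position in the GENCODE 44 annotation (x axis) for all members, members in clusters, eligible peaks and the peaks gained in erAlec0 and erLor0 or in erCriz0 only. Error bars are 95% Wilson intervals, and members are below eligible peaks at transcript starts (14.6% against 35.9%) and above them in introns (59.6% against 39.8%).

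Members were short. Their median length was 681 bases against 1118 for eligible peaks and 1392 for peaks gained in erAlec0 and erLor0, and only 15 members were 10 kb or longer, against 1618 eligible peaks. Members were also weaker, with median levels in erAlec0 of 5.10, 5.65 and 6.48 in the same order. The lengths were not compared at the same level, and the part of the level was not tested. Protein-coding genes of 200 kb or longer covered 28.1% of the members (26.6 to 29.6) and 19.3% of eligible peaks, against 27.8% of the peaks gained in erCriz0 alone and 24.0% of those gained in erAlec0 and erLor0. Among intronic peaks alone the shares were 40.2% and 35.0%.

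By chromosome, members made up the largest share of eligible peaks on chromosomes 21 (8.24%, 71 members), 15 (7.64%, 175) and 18 (6.96%, 80), and the smallest on chromosomes 19 (2.45%, 70), 20 (2.69%, 49) and 16 (3.19%, 78), with none on Y among 2 eligible peaks. The eligible peaks of chromosomes 15 and 18 had median changes of 0.48 and 0.55 in erAlec0, against -0.07 on chromosome 19 and -0.10 on chromosome 20. Across all eligible peaks the median change was 0.22.

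The members were compared with the peaks around them, as a description, since the rule used the same change. For 3491 members with at least 10 other non-member peaks within 1 Mb, the median change of those peaks had a median of 0.19 (quartiles -0.08 and 0.48), and the members exceeded it by a median of 1.23. Leaving members out of the region lowers its median, and with them kept the excess was 1.18. The surrounding peaks also include those below the level minimum that members had to reach. The median change in erAlec0 was 0.003 over all peaks and 0.22 over eligible peaks. The excess over eligible neighbours alone was not computed. The region itself was at 0.5 or more for 829 members (23.7%) and at 1 or more for 101, and below 0 for 1078 (30.9%). Copy number was not analysed here, and its part was not tested.

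Many members lay in runs. With members chained at gaps of up to 50 kb, 1433 (40.7%) stood alone, 1514 fell into 632 chains of 2 to 4, and 572 (16.3%) fell into 78 clusters of 5 or more. The clusters spanned 8.61 to 215 kb, with a median of 54.2 kb. For peaks gained in erAlec0 and erLor0 the share in clusters was 13.7%, in 83 clusters of at most 12 peaks, and for those gained in erCriz0 alone 13.4%, in 84 clusters of at most 32. The largest cluster of members held 27.

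Between the members of a cluster, most other peaks were higher in erAlec0 as well. The spans held 810 peaks that were not members, of which 766 were higher in erAlec0 than in naive cells and 355 were higher by 1 or more. Beside this, 13299 of the 69508 eligible peaks, members included, were higher by 1 or more. The median change in erAlec0 over all peaks was 0.003. The 810 also include peaks below the level minimum. These spans were chosen by their members, so the counts describe the domains and test nothing.

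The largest cluster, chr1:12354078-12568862, held 27 of the 50 peaks in its span over VPS13D, which encodes a lipid transfer protein, and DHRS3, which encodes a retinaldehyde reductase. In naive cells its members had a median level of 4.50 (2.93 to 11.03), in erAlec0 5.62 (4.11 to 12.1), in erCriz0 4.19 (2.57 to 11.5) and in erLor0 4.37 (2.86 to 11.03). The 23 other peaks of the span had a median change of 0.89 in erAlec0. RNA of VPS13D was 10.4 in naive cells, 10.3 in erAlec0, 10.6 in erCriz0 and 10.3 in erLor0, and RNA of DHRS3 was 10.8, 10.1, 10.0 and 9.97 in the same order, so neither was higher in erAlec0.

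Over HDAC9, a histone deacetylase gene, chr7:18446006-18567893 held 21 members among 46 peaks. Their median level was 4.32 in naive cells, 5.73 in erAlec0, 3.92 in erCriz0 and 3.57 in erLor0. The erLor0 level was thus the lowest, with a median change of -0.75, and all 25 other peaks of the span were above naive cells in erAlec0. The longest member, chr7:18545492-18555960, was at 9.19 in naive cells, 10.6 in erAlec0, 9.16 in erCriz0 and 8.31 in erLor0. HDAC9 RNA was 7.86 in naive cells, 7.63 in erAlec0, 7.49 in erCriz0 and 6.94 in erLor0, lowest in the line with the least acetylation and not higher in erAlec0.

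Within FMN1, which encodes formin 1, a regulator of the actin cytoskeleton, chr15:32774388-32856710 held 17 members among 30 peaks. The members had median levels of 3.40 in naive cells, 5.54 in erAlec0, 3.38 in erCriz0 and 3.17 in erLor0. Of the 13 other peaks, 12 were also higher by 1 or more in erAlec0, so that the whole stretch was raised, with a median change of 1.93 over all its peaks. Its member with the largest change, whose centre is printed above, was at 3.40 in naive cells, 6.31 in erAlec0, 3.53 in erCriz0 and 3.17 in erLor0. FMN1 RNA was 9.92, 9.58, 10.3 and 9.37 in naive cells, erAlec0, erCriz0 and erLor0.

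The clusters of KIAA1217 and SPOCK2 lay on chromosome 10. KIAA1217, which encodes a cytoskeletal adaptor, had 14 members among 48 peaks in chr10:24213004-24355610, with median levels of 3.63, 5.37, 3.26 and 3.62 in naive cells, erAlec0, erCriz0 and erLor0. Of its 34 other peaks, 28 were higher by 1 or more in erAlec0. KIAA1217 RNA was 9.45, 9.77, 9.12 and 9.42 in the same order. The cluster chr10:71997736-72111183 had 13 members among 39 peaks beside CHST3, a chondroitin sulfotransferase gene, and SPOCK2, which encodes a secreted proteoglycan, with median levels of 3.68, 5.07, 3.91 and 3.91. CHST3 RNA was 7.73, 8.19, 7.92 and 8.25, and SPOCK2 RNA stayed below the expressed limit in every line, at 2.39 to 2.81.

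The other clusters among the 8 largest lay at a zinc finger gene, a ciliary gene and an adhesion gene. ZNF675 (chr19:23479732-23571637) had 13 members with median levels of 4.10, 5.13, 3.09 and 4.10 in naive cells, erAlec0, erCriz0 and erLor0, the lowest of the 8 in erCriz0 by median change (-0.91). BBS9, a component of the BBSome that carries proteins to cilia, had 13 members in chr7:33590973-33734108 at 4.73, 6.25, 4.49 and 5.22. ALCAM, which encodes a cell adhesion molecule, had 12 in chr3:105456627-105495129 at 4.25, 5.70, 3.90 and 4.05. RNA in erAlec0 differed from naive cells by -0.28 for ZNF675, -0.32 for BBS9 and 0.33 for ALCAM. Every expressed gene paired with these 8 clusters thus had RNA within 1 of naive cells in erAlec0.

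Some clusters outside the 8 largest are given because of their change or their gene. On chromosome 11, chr11:131227622-131340835 held 11 members with a median change of 2.91 and a highest of 3.59, and all 28 other peaks in its span were higher by 1 or more in erAlec0. Only 19 of its 39 peaks reached the level minimum. Of its members, 10 were paired with the lncRNA gene ENSG00000231698, whose RNA was listed at 0 in every line. At NEDD9, which encodes a scaffold protein of integrin signalling and cell migration, 11 members lay in chr6:11191500-11280142 within the gene and 9 in chr6:11381181-11441516, of which 5 were paired with it. The first had median changes of 1.44 in erAlec0, -0.62 in erCriz0 and 0.15 in erLor0. NEDD9 RNA was 8.44 in naive cells, 9.91 in erAlec0, 7.27 in erCriz0 and 9.21 in erLor0. The RNA was thus highest in erAlec0 and lowest in erCriz0. The median change of the members in the first cluster was lowest in erCriz0 too. That members were highest in erAlec0 was fixed by the rule.

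**Figure D3:**
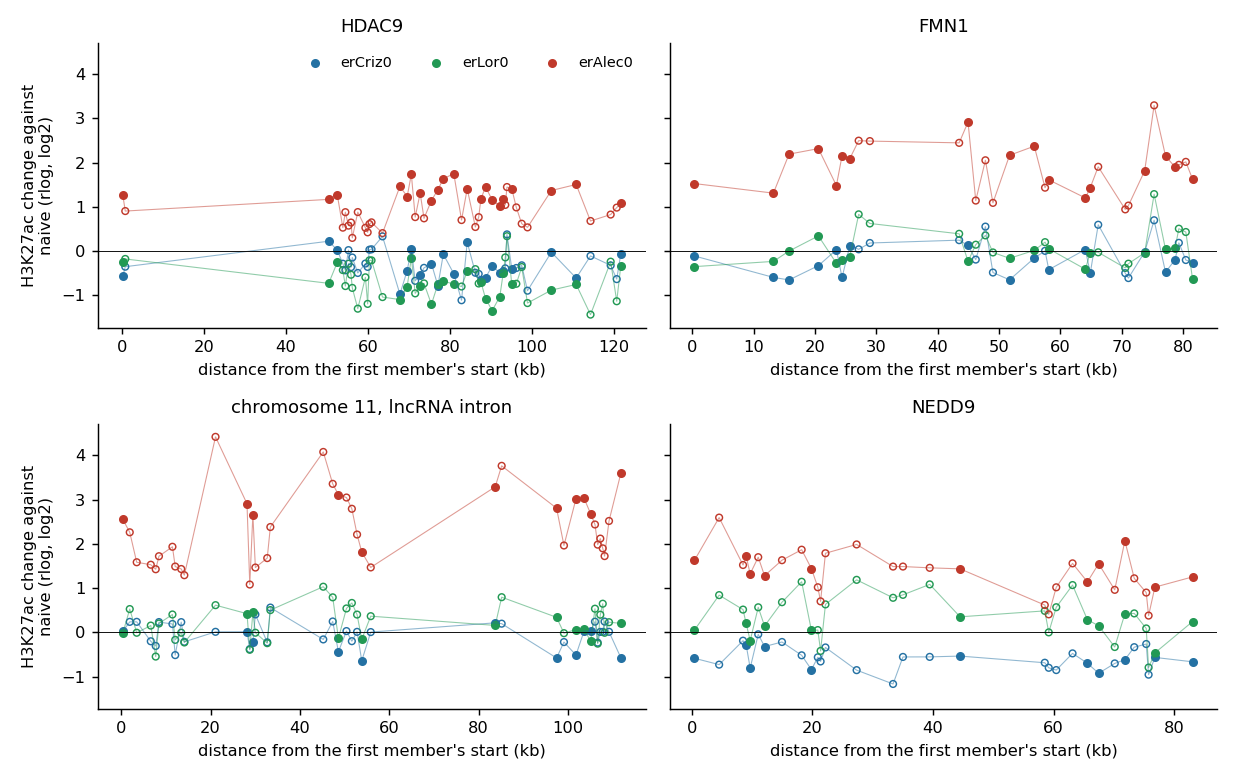
H3K27ac change against naive cells (y axis, rlog difference) for every peak in 4 clusters, by distance from the start of the first member (x axis, kb), in erAlec0 (red), erCriz0 (blue) and erLor0 (green). Filled points are members and open points other peaks, and the red points lie above 0 throughout each span, also between members.

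The 10 members with the largest change were higher in erAlec0 by 3.16 to 4.09. The highest, chr8:3725134-3726721 in an intron of CSMD1, was at 2.50 in naive cells, 6.59 in erAlec0, 2.99 in erCriz0 and 2.79 in erLor0. Another on chromosome 8, chr8:5489440-5491493, lay outside genes and was at 2.51, 6.43, 2.54 and 2.30 in the same order. The third, chr4:169939213-169944290, lay at a start of the lncRNA LINC02275 and was already marked in naive cells, at 5.63, 9.22, 5.32 and 5.71. Of the rest, 2 lay in the chromosome 11 cluster described above. The others were chr19:27859575-27861614 at the lncRNA LINC02987 (2.69, 6.18, 3.11 and 2.80), chr2:63614607-63615925 in WDPCP (3.05, 6.45, 3.41 and 3.33), chr2:125708545-125712470 at LINC01889 (5.08, 8.32, 4.72 and 5.43), chr6:87421810-87423179 in CFAP206 (3.15, 6.32, 3.07 and 3.56) and chr14:62022993-62023984 in SYT16 (2.71, 5.87, 2.42 and 2.93). None of the 10 lay within 1 kb of a protein-coding start, and 3 lay at starts of lncRNA transcripts.

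Members were poorer in G and C than eligible peaks. The central 200 bases had a median GC content of 45.0% in members and 49.5% in eligible peaks, and 29.0% of members (27.5 to 30.5) lay above the median of eligible peaks. Away from starts the medians were 44.5% and 47.0%. Members made up 7.43% of the eligible peaks in the lowest of 5 groups by GC content and 1.09% in the highest. The median change of all eligible peaks in erCriz0 and erLor0 was -0.04 and 0.06 in the lowest GC group and 0.32 and 0.41 in the highest, while in erAlec0 it was 0.28 and 0.25. GC content thus moved with the limits in erCriz0 and erLor0, and its part in the choice of members was not tested beyond the alternative given at the end.

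The AP-1 motif was not more frequent in members. A match to TGANTCA, the site of the FOS and JUN factors, lay in the central 200 bases of 214 members (6.08%, 5.34 to 6.92) and of 6.67% of eligible peaks. In members away from starts the share was 6.19% against 7.79%, and in members in clusters 5.77%. From the lowest to the highest of the 5 GC groups, matches were in 6.96%, 7.497%, 4.95%, 4.01% and 3.31% of members. In eligible peaks of the same groups they were in 8.36%, 9.03%, 7.47%, 5.78% and 2.55%. The share was thus lower in members in every group but the highest, where 5 of 151 members had a match. The median change in erAlec0 was 1.38 with a match and 1.37 without.

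Among 15 further motifs searched in the same windows on both strands, few differed much. AGATAA, bound by GATA factors, was in 12.99% of members (11.9 to 14.1) and 9.10% of eligible peaks, and GGAATG, bound by TEAD factors, in 13.3% (12.2 to 14.4) and 10.8%. Away from starts the shares were 12.7% and 10.7% for GATA and 13.2% and 11.6% for TEAD. Over the 5 GC groups, from lowest to highest GC content, GATA matches were in 22.3%, 13.4%, 7.48%, 4.43% and 1.32% of members and in 19.2%, 12.5%, 7.82%, 3.93% and 1.31% of eligible peaks. TEAD matches were in 13.3%, 12.9%, 13.1%, 13.5% and 15.9% of members and in 10.9%, 13.4%, 11.6%, 11.2% and 7.004% of eligible peaks. The third group for GATA and the second for TEAD thus went the other way. GGGCGG, the SP and KLF motif of promoters, was in 3.89% of members and 12.2% of eligible peaks, and CCGGAAG, the ETS motif, in 0.654% and 1.84%.

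The remaining motifs were as follows. CANNTG (E-box) was in 66.8% of members and 65.4% of eligible peaks, CACCTG (the E-box of ZEB and SNAI factors, which CANNTG includes) in 19.4% and 21.2%, and CACTTG (NKX2, which CANNTG also includes) in 13.8% and 12.3%. TGTTTAC (forkhead) was in 3.44% and 2.94%, TTGCNNAA (C/EBP) in 9.52% and 8.39%, and TGTGGT (RUNX) in 14.4% and 13.02%. ACAATGG (SOX) was in 3.13% and 2.41%, and TTCNNNGAA (STAT) in 6.65% and 5.38%. The longer NF-kB, HNF1 and NFI motifs were rare, in 6 (0.171%), 10 (0.284%) and 2 (0.0568%) members, against 0.236%, 0.160% and 0.0173% of eligible peaks.

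Each peak was paired in the table with genes within 20 kb, and 4225 genes were paired with a member, of which 1429 were expressed and 1432 were at 0 in all lines. The 3519 members made 6841 pairs with 1982 protein-coding genes, 1187 lncRNA genes and others. Pairing by distance does not show that a peak acts on the gene.

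RNA of the paired genes differed little on the whole. The median RNA change in erAlec0 of the 1429 expressed genes was 0.06, against 0.00 for all 12704 expressed genes, and 795 of them (55.6%) were above naive cells against 50.3%. The median of the same genes was also 0.06 in erCriz0 and 0.01 in erLor0, both lines in which the rule held the change of members under 0.5. RNA was higher by 1 or more in erAlec0 for 72 of them (5.04%, 4.02 to 6.30), with a background of 2.45% of all expressed genes, and lower by 1 or more for 27 (1.89%) with a background of 2.07%. In erCriz0 66 (4.62%) were higher by 1 or more, with a background of 2.64%, and 20 (1.40%) lower, with a background of 1.65%. In erLor0 17 (1.19%) were higher and 6 (0.420%) lower, with backgrounds of 1.10% and 0.740%.

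The share with higher RNA in erAlec0 differed with the number and place of the members. It was 4.18% for 886 genes with 1 member, 3.55% for 282 with 2, 8.11% (4.97 to 12.9) for 185 with 3 or 4, and 13.2% (7.31 to 22.6) for 76 with 5 or more. In erCriz0 the shares were 4.18%, 4.96%, 5.41% and 6.58%, and in erLor0 1.02%, 1.42%, 0.541% and 3.95%. Genes paired with a member in a cluster had a median RNA change of 0.25 in erAlec0 and -0.04 in erCriz0, and 12 of 86 (13.95%) were higher by 1 or more in erAlec0 against 1 (1.16%) in erCriz0 and 2 (2.33%) in erLor0. Genes with a start within 1 kb of a member were higher in 23 of 214 (10.7%, 7.27 to 15.6), lower in 5 (2.34%), and higher in 10 (4.67%) in erCriz0. The 86 genes for which members made up at least 0.5 of the eligible peaks had no raised median. Their median RNA change was -0.02 in erAlec0, with 42 (48.8%) above naive cells against 50.3% of all expressed genes. Of them 5 (5.81%) were higher by 1 or more and 4 (4.65%) lower, with backgrounds of 2.45% and 2.07%. All shares here keep the genes of a chromosome 17 stretch described below. That stretch held 13 of the 72 paired genes that were higher by 1 or more in erAlec0. Shares by member number were not recomputed without it, nor set against genes with as many eligible peaks.

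**Figure D4:**
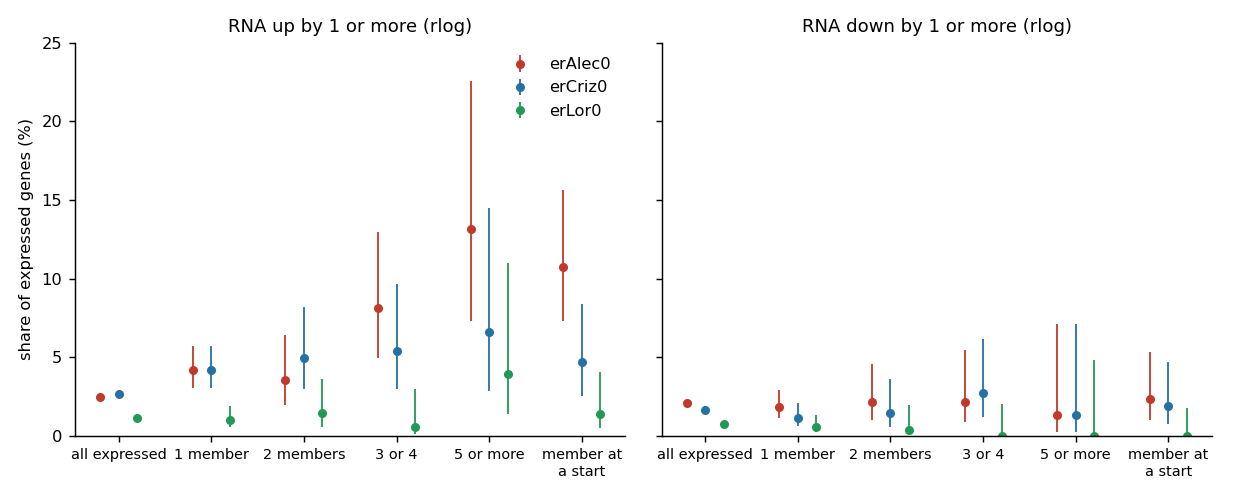
Share of expressed genes (y axis, %) with RNA higher (left) or lower (right) by 1 or more against naive cells, for all expressed genes and for genes by number of paired members or with a member at a transcript start (x axis), in erAlec0 (red), erCriz0 (blue) and erLor0 (green). Bars are 95% Wilson intervals over genes, which are not replicates, and the erAlec0 share reaches 13.2% for 5 or more members. Genes of the chromosome 17 stretch described below are included.

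A stretch of chromosome 17 moved as a whole. Between 13 and 22 Mb, a window chosen after its values were seen, all 77 expressed genes together had a median RNA change of 0.90 in erAlec0, -0.14 in erCriz0 and 0.38 in erLor0. In erAlec0, 71 of 77 were above naive cells and 33 higher by 1 or more, against 50.3% and 2.45% of all expressed genes. The 524 eligible peaks of this stretch had a median change of 0.81 in erAlec0, 0.05 in erCriz0 and 0.35 in erLor0, and 51 were members. Without these genes 4.202% of the paired genes were higher by 1 or more in erAlec0, with 2.20% of all expressed genes. With each gene's change taken less the median of the other expressed genes within 1 Mb, the share was 3.76% against 2.02%. Copy number of this stretch was not analysed here, and its part was not tested.

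Of the expressed genes paired with at least 3 members, the 10 with the largest RNA increase in erAlec0 were higher by 1.44 to 3.16. TCHHL1, a trichohyalin-like gene of the epidermal differentiation complex, was at 4.08 in naive cells, 7.24 in erAlec0, 4.14 in erCriz0 and 4.28 in erLor0, so its RNA stood apart in erAlec0. Its start was covered by a member, chr1:152086943-152091870, at 8.04, 10.7, 7.75 and 7.96. The same 5 members paired with its neighbour TCHH, which encodes trichohyalin, whose RNA was 8.95, 7.73, 8.67 and 8.30 and so lowest in erAlec0.

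AASS, an enzyme of lysine breakdown, was at 6.56 in naive cells, 8.64 in erAlec0, 7.37 in erCriz0 and 7.10 in erLor0. SEMA3B, a secreted semaphorin, was at 6.33, 8.30, 7.44 and 6.64, and ANXA3, a calcium-dependent membrane-binding annexin, at 8.09, 9.91, 8.23 and 8.92. FILIP1L, a filamin-interacting protein gene paired with 12 members, was at 5.26, 7.06, 6.01 and 5.67, while CMSS1, which shares those 12 members, was at 8.77, 8.61, 8.48 and 8.59. In all 4 raised genes erAlec0 was highest, and the other resistant lines were also above naive cells.

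NXN, nucleoredoxin, was at 6.04 in naive cells, 7.78 in erAlec0, 5.50 in erCriz0 and 7.19 in erLor0. COL4A2, a chain of basement membrane collagen, was at 7.998, 9.49, 7.93 and 8.63, with 9 members higher by 1.17 to 1.85 in the cluster, chr13:110319674-110355418. Both, like NEDD9, were also higher in erLor0, by 1.14 and 0.64. SNHG29 and NCOR1, a nuclear receptor corepressor, lay in the chromosome 17 stretch, and were at 12.6 and 13.6 in erAlec0 against 11.02 and 12.2 in naive cells. Their neighbours within 1 Mb had median changes of 0.99 and 1.08, against changes of 1.56 and 1.44 for these genes. For the other 8 genes the neighbours were between -0.19 and 0.46.

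The 5 expressed genes with 3 or more members and the largest RNA decreases in erAlec0 were AKR1C2, AKR1C3, ZNF367, PPARGC1B and TCHH. AKR1C2, an aldo-keto reductase that acts on steroids, was at 7.92 in naive cells, 4.96 in erAlec0, 5.09 in erCriz0 and 6.93 in erLor0, and AKR1C3 at 6.32, 4.46, 5.26 and 5.39. These are close paralogs that can share reads, so their separate values are uncertain. PPARGC1B, a coactivator of mitochondrial genes, was at 7.497, 6.23, 6.78 and 7.34, although a member lay at its start with 4.24, 6.28, 4.01 and 4.25. ZNF367 was at 8.14, 6.66, 7.63 and 7.48. All 5 were lowest in erAlec0, beside peaks that the rule made highest there.

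**Figure D5:**
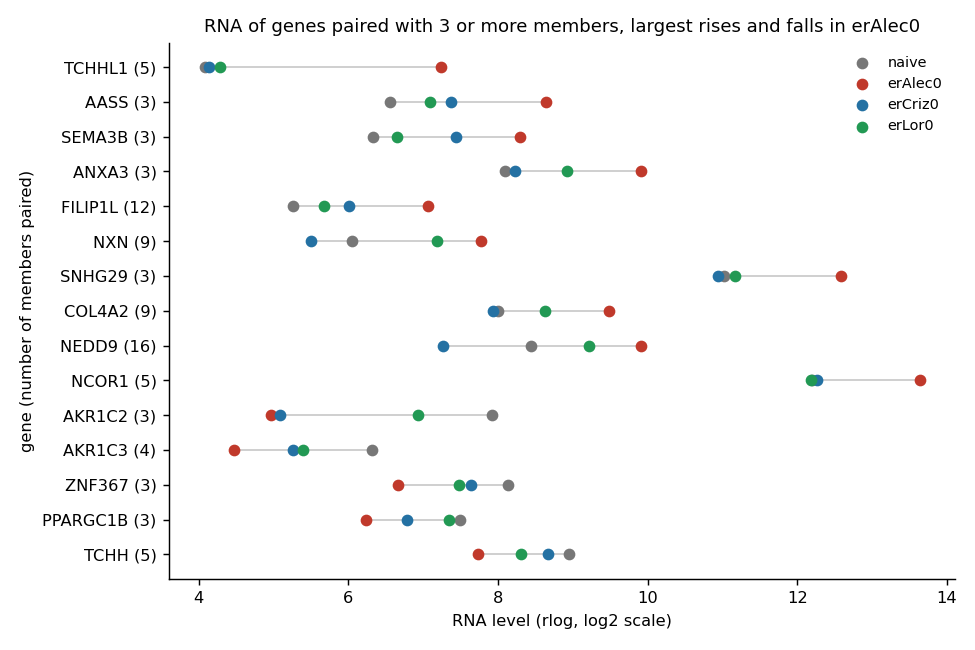
RNA level (x axis, rlog on the log2 scale) in naive cells, erAlec0, erCriz0 and erLor0, 1 library each, for the 10 largest increases and 5 largest decreases in erAlec0 among expressed genes paired with 3 or more members (y axis, number of members in brackets). The erAlec0 point lies at the high end for the first 10 genes and at the low end for the last 5.

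The genes with the most members differed in RNA. HDAC9 had 21 paired members, BBS9 20, VPS13D 19, FMN1 18, KIAA1217 17 and NEDD9 16, followed by ALCAM, CMSS1, FILIP1L and ZNF675 with 12 each. Of these 10 genes, 2 (NEDD9 and FILIP1L) had RNA higher by 1 or more in erAlec0, with a background of 2.45% of all expressed genes. Another 6 were below naive cells by less than 1, where 50.3% of all expressed genes were above naive cells.

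At starts of expressed protein-coding genes, the 10 members with the largest change were higher by 2.33 to 3.06. The peak of TIAM2, an activator of the GTPase RAC, was at 3.01 in naive cells, 6.07 in erAlec0, 3.36 in erCriz0 and 3.38 in erLor0, and TIAM2 RNA was 5.89, 5.35, 5.79 and 5.39. The peak of ATXN10 spanned 13538 bases and was at 7.82, 10.6, 7.53 and 8.20, with RNA at 9.66, 9.54, 9.63 and 9.61. RERG, UTP20, ANKRD6, GTF2H3, KIF23, VPS13D and SH3D19 had RNA changes of -0.13, -0.24, -0.43, -0.15, -0.81, -0.10 and 0.62 in erAlec0. With TCHHL1, which makes up the 10, RNA was higher in 2 and lower in 8. Of all 203 expressed protein-coding genes with a start within 1 kb of a member, 55.2% were above naive cells in erAlec0. Among all expressed genes the share was 50.3%, so the 10 do not stand for the whole set. Several of these genes have more than 1 start, and the RNA value does not separate them.

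Gene lists of pathways tied to resistance were examined next. ALK-rearranged tumours can escape ALK inhibitors through other receptor tyrosine kinases, their ligands, or a shift towards a mesenchymal state. Over all genes, 10.8% of those with an eligible peak were paired with a member, and 4.02% of eligible peak-gene pairs were members.

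Of 44 receptor tyrosine kinase genes with an eligible peak, 6 (13.6%) had a member, 15 of 375 pairs (4%). ALK itself had 4 members higher by 1.09 to 1.76, and its RNA was 8.18 in naive cells, 9.58 in erAlec0, 10.6 in erCriz0 and 8.10 in erLor0, highest in erCriz0. Reads from the ALK part of the fusion transcript and from ALK itself cannot be told apart in this value. The 4 other expressed genes within 1 Mb of ALK had a median RNA change of 0.52 in erAlec0. The paper reported amplified EML4-ALK in most erCriz cells and in a fraction of erAlec cells. Copy number was not analysed here, and its part was not tested. EPHA4, an ephrin receptor, had 1 member and RNA of 7.02, 8.39, 7.41 and 8.16. IGF1R, the insulin-like growth factor receptor, had 4 members and RNA of 10.9, 11.1, 11.04 and 11.1. FGFR2, a fibroblast growth factor receptor, had 4 members higher by 1.58 to 2.63 and RNA below 4.64 in all lines, and FGFR3 had 1 member and an RNA change of 0.38. ROS1 had 1 member and no expressed RNA. In the list, 3 of 29 expressed genes were higher by 1 or more in erAlec0 and 1 lower, with backgrounds of 2.45% and 2.07% of all expressed genes, and the median was 0.30.

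Among 40 growth factor genes, 5 had a member, 7 of 239 pairs (2.93%). KITLG, the ligand of KIT, had 3 members and RNA of 7.29, 7.90, 9.47 and 7.71 in naive cells, erAlec0, erCriz0 and erLor0. PDGFC, VEGFA, BTC and PROS1 had 1 each, with RNA changes in erAlec0 of 0.74, 0.42, 0.10 and 0.08. The list median over 23 expressed genes was 0.29, with 3 higher by 1 or more and 1 lower (2.45% and 2.07% of all expressed genes).

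Of 30 genes of the epithelial-mesenchymal transition, 7 had a member, 11 of 167 pairs (6.59%). TGFB2, a transforming growth factor, had 5 members and RNA of 4.35, 4.58, 4.85 and 4.51. VIM, the mesenchymal filament vimentin, had 1 member and RNA of 5.74, 7.20, 8.13 and 6.27, higher in erCriz0 than in erAlec0. TNC, TGFBR2, ITGB3, COL5A1 and CDH1 had 1 each, with RNA changes in erAlec0 of 0.11, 0.79, 0.53, 0.35 and 0.24. Over 28 expressed genes the median was 0.55, with 4 higher by 1 or more and none lower (2.45% and 2.07% of all expressed genes).

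Axon guidance and neuronal adhesion genes held the largest share of members among the lists: 18 of 47 genes (38.3%) and 39 of 391 pairs (9.97%). NRXN3, a presynaptic adhesion gene, had 9 members higher by 1.08 to 2.59, and RNA of 7.88 in naive cells, 7.79 in erAlec0, 8.89 in erCriz0 and 7.73 in erLor0. NTM, a neuronal adhesion gene beside the chromosome 11 cluster, had 4 members higher by 1.16 to 2.18 and RNA between -0.08 and 0.09. SEMA3A had 3 members and RNA of 9.39, 9.94, 10.1 and 9.08, and SEMA3B 3, as given above. UNC5C had 3 and SLIT3 2, both genes without expressed RNA. SEMA3E had 2 members higher by 1.81 and 2.53 with an RNA change of 0.08. Others of the list, SLIT2, ROBO1, ROBO2, SEMA6D, PLXNA4, NCAM1, CNTN1, CNTNAP2, CADM2 and NLGN1, had 1 each, with RNA changes from -0.40 to 0.92. Of 27 expressed genes of the list, 2 were higher by 1 or more in erAlec0 and none lower (2.45% and 2.07% of all expressed genes), with a median of 0.07.

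Alveolar and airway genes had 6 members at 5 of 33 genes (2.83% of pairs). HOPX, a homeodomain protein of alveolar type 1 cells, had 2 and RNA of 4.96, 6.95, 4.70 and 7.37, and LAMP3, a lamellar body protein, 1 and RNA of 7.73, 8.80, 6.99 and 8.44. NKX2-1, GATA6 and TP63 had 1 each and RNA changes of 0.45, 0.13 and 0.77. Of 21 expressed genes, 4 were higher by 1 or more and 3 lower (2.45% and 2.07% of all expressed genes), with a median of 0.45. AP-1 and immediate early genes had 3 members at 3 of 31 genes (1.34% of pairs): MAFK, EGR2 and BATF, with RNA changes of 1.05, 0.20 and -0.07. Of 27 expressed genes, 3 were higher by 1 or more and none lower (against the same shares), with a median of 0.31.

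The marker lists held members as well. KRT8 and KRT18 shared 2 members, and CDH1 and NKX2-1 had 1 each, in all 6 of 103 pairs (5.83%), and 1 of the 12 genes had RNA higher by 1 or more (2.45% of all expressed genes). Of the stromal, immune and endothelial markers, CD3E, VWF and RGS5 had 1 member each, 3 of 46 pairs (6.52%), with RNA of CD3E and VWF below the expressed limit in every line and an RNA change of RGS5 of -0.19.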

How the data were processed

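H3K27ac ChIP-seq and RNA-seq of naive H3122 cells, erAlec0, erCriz0 and erLor0 were analysed, with 1 library of each kind per line. erCriz1, erLor1, the lorlatinib 2-week sample and the pooled input were not analysed here. Before deposit, the authors aligned ChIP reads to hg38 with BWA, removed duplicates, used MACS2 for peak calling, merged the calls over samples and applied rlog to the featureCounts totals. RNA was aligned with HISAT2 and counted with HTSeq-count. The deposited values are therefore log2 values, in which low counts are shrunken, and hold no library totals, so depth and counting error are unknown. The deposited correlation columns were not used.

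Changes are differences from naive cells. With 1 library per line no test was made. A gene counted as expressed at 4.64 or more in at least 1 line, and as higher or lower at a change of 1 or more. Members were chained into clusters at gaps up to 50 kb (at least 5 members). Positions came from GENCODE 44, and motifs and GC content from the central 200 bases of hg38. Named were the 10 members with the largest change, the 8 largest clusters, the 10 genes with the most members, the 10 largest RNA increases and 5 largest decreases among expressed genes with at least 3 members, the 10 members with the largest change at coding starts, the peaks nearest each limit, and list genes with a member, apart from what is not reported here. The clusters of ENSG00000231698, NEDD9, TCHHL1 and COL4A2 and the chromosome 17 stretch were named after their values were seen. Members and lists were chosen with earlier results of these data known. Scripts used pysam 0.24.0, pandas 2.3.3, numpy 2.4.6, matplotlib 3.10.9 and scipy 1.17.1 under Python 3.11.15, and were tested on simulated data.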

Additional observations from a re-analysis of the deposited data

How the results depend on the processing

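No paired analysis was possible because each line has 1 library. The 3519 members became 1319 and 430 with a change of at least 1.5 and 2 in erAlec0, 1761 and 668 with limits of 0.25 and 0 in the other lines, 6217 with no level minimum and 1875 with a minimum level of 5. Centring each library left 2589 members and quantile normalization 2749. Taking each change less its region's median gave 2557, of which 1665 were members (47.3% of the members kept). Of the alternatives chosen after seeing the data, removing the trend with level gave 2011 (42.4% of the members kept), removing that with GC content 2983 (67.2% kept), and dropping the limit in erLor0 10710.

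The share of members in clusters (16.3%) was 11.1% and 21.4% with gaps up to 25 and 100 kb, 34.3% and 5.23% with at least 3 and 10 members, 14.6% after centring, 6.97% and 5.35% for changes of at least 1.5 and 2, and 13.6% and 11.5% after removing the GC and level trends. The share at starts (14.6%) was 6.56% for peaks overlapping a start (25.8% of eligible peaks), 38.8% in a 5 kb window (57.1%), 9.09% for coding genes (29.0%), 12.1% and 11.4% for changes of at least 1.5 and 2, and 16.2% and 17.8% after removing the GC and level trends.

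The median RNA change (0.06) was 0.13 for genes with at least 3 members, 0.25 for members in clusters and 0.0082 over all genes not at 0 in all lines. The share with higher RNA (5.04%) was 12.9% at the log2 of 1.5 (7.93% of expressed genes), 0.350% at 2 (0.173%), 9.58% with at least 3 members, 10.7% at starts, 2.61% over all genes not at 0 (1.16%), 6.67% for members higher by at least 2, 13.95% in clusters and, in an alternative chosen after seeing the data, 3.76% less the neighbouring genes (2.02%). The excess over the region (1.23) was 1.15 at 0.5 Mb and 1.34 at 5 Mb. AP-1 matches (6.08%) were in 9.72% of 300-base and 15.4% of 500-base windows (9.89% and 16.1% of eligible peaks). The share above the median GC content (29.0%) was 26.4% over 500 bases and 27.4% over whole peaks. The causes of these differences were not tested. With 1 library per line and no read totals, replicate error is unknown.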
